A study of Arabidopsis thaliana with 18 samples.

Results

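The NIN-like proteins NLP1 to NLP9 are the complete NLP family of Arabidopsis. Each was taken by its gene locus, with all of its probes, from 18 one-colour arrays of whole shoots. All 9 genes were represented, by 15 probes, and all 15 probes passed the filter on dim signals, within 21060 genes and 29416 probes tested in all. NLP1 (AT2G17150) and NLP8 (AT2G43500) lie on chromosome 2, and NLP2 (AT4G35270), NLP3 (AT4G38340) and NLP7 (AT4G24020) on chromosome 4. NLP4 (AT1G20640), NLP5 (AT1G76350) and NLP6 (AT1G64530) lie on chromosome 1 and NLP9 (AT3G59580) on chromosome 3.

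NLPs are the transcription factors through which nitrate switches on its primary response genes. They bind DNA by an RWP-RK domain, pair through a C-terminal PB1 domain, and are held inactive by an N-terminal region until nitrate arrives. Nitrate acts on NLP7, the best studied member, after translation: CPK10, CPK30 and CPK32 phosphorylate it and it stays in the nucleus. The transcript levels described here therefore do not measure NLP activity.

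The study compared 2 transgenic lines in the Columbia background. Both are homozygous for the ao null allele (fin4-2, a T-DNA insertion) and carry the genomic AO gene, whose product, L-aspartate oxidase, begins de novo NAD synthesis. In MutatedAO plants the AO promoter has a mutated NLP-binding site, while in WTAO plants the promoter is unaltered, and 1 transgenic line (line #1) stands for each. In every comparison of the lines, the promoter mutation therefore cannot be told apart from other differences between these 2 transformants. Plants grown in hydroponic culture under constant light were collected before starvation (0d), after 3 days without N (Nstarvation3d) and after 24 h of resupply with 10 mM KNO3 (resupply). Each of the 6 groups has 3 arrays, and each replicate pooled shoots of 2 or 3 seedlings. No plants kept on N until the later stages are on these arrays, so a change between stages cannot be told apart from a change with age.

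The binding site by which the AO promoters of the lines differ is printed here because it is the only sequence that was altered on purpose. It was read from the primers of the study, on the promoter's sense strand of AO on chromosome 5, with the 8 bases of the site in capitals.
MutatedAO promoter: tagttgTTGCAGTGgga
WTAO promoter: tagttgTGGCCGTTgga
Counted from 1 at the 5′ end of the site, the unaltered sequence is changed at 3 positions, G2T, C5A and T8G.

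Signals are given as log2 of the processed signal minus the 75th percentile of the array, so that 0 is the level of a probe at that percentile. The level of a probe cannot be set against that of another probe, and only differences between arrays are read. Every comparison below is from 1 limma model over all probes tested, and a gene was called at a Benjamini-Hochberg adjusted p of 0.05 or less, with 95% intervals in brackets. Where a gene has several probes, the brightest gives its value.

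The arrays were of like quality, with 75th percentiles of 2214 to 3111 intensity units and 72.6 to 76.1% of probes well above background. The brighter AO probe averaged −1.33, −1.31 and −1.28 at the 3 stages in MutatedAO shoots, against 1.52, 1.07 and 0.84 in WTAO shoots, and the lines did not overlap at any stage. On the second, much dimmer AO probe the lines overlapped at Nstarvation3d, with −5.74, −5.38 and −4.59 in MutatedAO against −4.65, −4.47 and −4.39 in WTAO shoots. The 5 shoot markers were well above background on every array, and of 6 root markers WER and TIP2;3 were well above background on 18 of 18 arrays, COBL9 on 15, LRX1 on 8, EXPA7 on 1 and IRT1 on 0. The summed linear signal of the 6 root markers, in units of the 75th percentile, lay between 0.0465 and 0.098 on all arrays. The 6 flower markers (AP1, AP3, PI, AG, SEP3, A9) were not even between groups. Their summed signal, in the same units, was 0.277 to 0.354 in MutatedAO and 0.0974 to 0.117 in WTAO shoots at 0d. At Nstarvation3d it was 0.621 to 0.834 in MutatedAO and 0.267 to 0.442 in WTAO shoots, and at resupply 0.869 to 1.15 in MutatedAO and 0.247 to 0.461 in WTAO shoots. The sum hides single markers. At 0d 4 of the 6 were called higher and 1 lower in MutatedAO shoots, where 19.2% of all genes tested were called higher and 19.5% lower. The lower one was AG, at −7.86 in MutatedAO (well above background on 0 of 3 arrays) against −6.43 in WTAO shoots (3 of 3). A9 was well above background on 7 of 18 arrays. The part of flower tissue in the differences between lines and stages below was not tested.

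The transcripts of most of the family were higher at Nstarvation3d than at 0d in both lines. In MutatedAO shoots this count depends on the background correction. The design does not tell starvation for N apart from age here. In MutatedAO shoots 8 of 9 genes were higher at Nstarvation3d than at 0d and 0 were lower, where 17.8% of all genes tested were called higher, 23.6% lower and 41.4% either way. With normexp background correction 3 of these 8 calls were left, NLP2, NLP5 and NLP6. In WTAO shoots 6 genes were higher and 1 was lower, where 28% of all genes tested were called higher, 31.9% lower and 59.9% either way. The median log2 change of the 9 genes was 0.33 in MutatedAO and 0.56 in WTAO shoots, against 0 and −0.01 over all genes tested. The study's methods also require a log2 change of 1 or more. Of the NLP genes 0 met both limits in any comparison, where 2.44% of all genes tested did with starvation in MutatedAO and 4.75% in WTAO shoots.

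NLP5, whose own role in the nitrate response is little defined, moved most in WTAO shoots. Its log2 signals at Nstarvation3d were −0.53, −0.47 and −0.42 in WTAO shoots, against −1.41, −1.32 and −1.31 at 0d, a 1.83-fold rise (log2 change 0.87 [0.68 to 1.06], adjusted p = 2.64e-06, limma). In MutatedAO shoots they were −1.18, −1.11 and −1.02 at Nstarvation3d, against −1.75, −1.59 and −1.57 at 0d (0.53 [0.34 to 0.72], adjusted p = 0.000398, limma). The stages did not overlap in either line. The second NLP5 probe gave 0.57 in MutatedAO and 0.93 in WTAO shoots, both called. The third and dimmest, which was well above background on 14 of 18 arrays, gave 0.26 in MutatedAO (adjusted p = 0.226, limma) and 0.98 in WTAO shoots (adjusted p = 0.000182, limma).

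NLP3 had the widest spread between replicates of the family, up to an SD of 0.42. It read −3.82, −3.64 and −3.35 in starved MutatedAO shoots, against −4.81, −4.48 and −4.30 at 0d. In WTAO shoots it read −3.50, −3.37 and −3.33 at Nstarvation3d, against −4.29, −4.20 and −3.89 at 0d. NLP3 rose by 0.93 [0.53 to 1.33] in MutatedAO and by 0.73 [0.33 to 1.12] in WTAO shoots. Its stages did not overlap in either line, a separation not counted over all genes for starvation. With normexp background correction NLP3 changed by 0.24 in MutatedAO and 0.58 in WTAO shoots and neither was called.

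NLP9 and NLP8 rose in both lines. NLP8 is known as the main nitrate regulator of seed germination. NLP9 was at −2.27, −2.27 and −2.16 in starved MutatedAO shoots against −2.74, −2.71 and −2.62 at 0d (0.46 [0.29 to 0.62]). In WTAO shoots it was at −2.60, −2.51 and −2.29 after starvation against −3.33, −3.22 and −3.18 at 0d (0.78 [0.61 to 0.95]). NLP8 rose by 0.26 [0.11 to 0.42] in MutatedAO and by 0.72 [0.56 to 0.88] in WTAO shoots. The MutatedAO call for NLP8 was the only one in the starvation comparisons that a single array decided: without MutatedAO Nstarvation3d replicate 3 it was 0.19 (adjusted p = 0.0592, limma). With the slide as a block it was 0.23 (adjusted p = 0.0773, limma), and the second NLP8 probe gave 0.07 (adjusted p = 0.674, limma).

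NLP4 rose by 0.33 [0.18 to 0.48] in MutatedAO and by 0.56 [0.41 to 0.71] in WTAO shoots. NLP2, which with NLP7 controls much of the early nitrate response, rose by 0.31 in both lines, with intervals of 0.16 to 0.46 in MutatedAO and 0.17 to 0.46 in WTAO shoots. For both genes the starved arrays lay above all unstarved arrays of the same line, a separation not counted over all genes for starvation.

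The remaining 3 genes were called in 1 line only. NLP1 rose by 0.26 [0.14 to 0.37] in MutatedAO shoots, against −0.01 [−0.12 to 0.11] in WTAO shoots. NLP6, which acts together with NLP7, rose by 0.42 [0.21 to 0.63] in MutatedAO shoots, against 0.00 [−0.21 to 0.21] in WTAO shoots. NLP7 fell in WTAO shoots, where its signals were 0.55, 0.62 and 0.66 at Nstarvation3d against 0.83, 0.83 and 0.85 at 0d (−0.23 [−0.35 to −0.12], adjusted p = 0.00203, limma). In MutatedAO shoots the NLP7 stages overlapped (0.03 [−0.09 to 0.14]). Its direction in WTAO shoots was thus the reverse of that of the 6 members that rose.

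The change itself was then compared between the lines. The interaction, the starvation response of MutatedAO minus that of WTAO, was called for 1 of 9 genes, NLP8, where 4.65% of all genes tested were called higher, 3.1% lower and 7.75% either way. It was also the 1 gene at an unadjusted p of 0.001 or less, the study's limit for interactions, which 4.02% of all genes tested met. The rise of NLP8 was smaller in MutatedAO shoots, with a difference of −0.46 [−0.68 to −0.23] (adjusted p = 0.0223, limma). That call was lost without MutatedAO 0d replicate 1 or 2, WTAO 0d replicate 2 or MutatedAO Nstarvation3d replicate 1, with adjusted p of 0.0539 to 0.0596 (limma), and with the slide as a block (adjusted p = 0.051, limma). It was also lost with normexp background correction. The second NLP8 probe gave −0.58 and missed the threshold (adjusted p = 0.0636, limma). NLP1 (0.26, adjusted p = 0.0503), NLP7 (0.26, adjusted p = 0.0522) and NLP6 (0.42, adjusted p = 0.0809) missed the limma threshold, so a difference between lines was not shown for them although each was called in 1 line only.

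**Figure D1:**
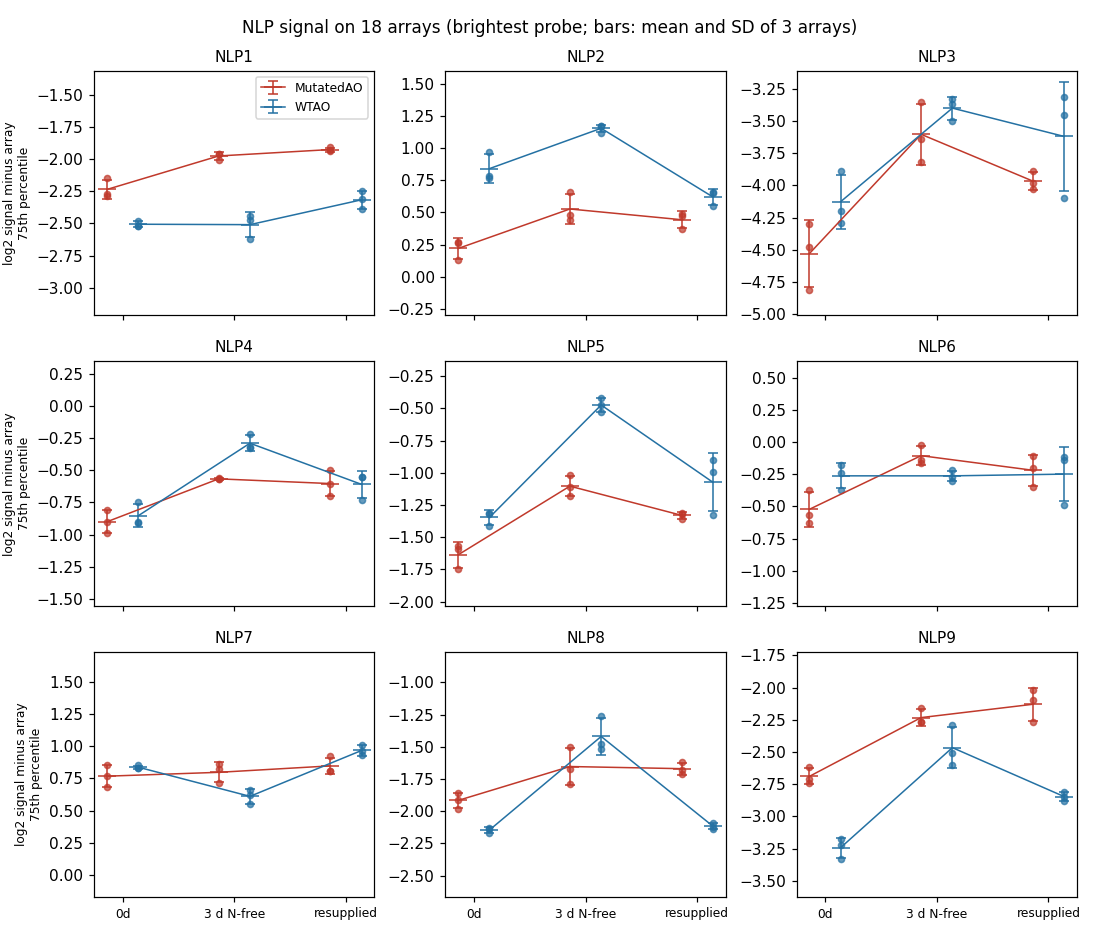
Each panel plots 1 NLP gene on the 18 arrays, as log2 signal minus the array's 75th percentile, at 0d, after 3 days without N and after resupply, with points for arrays, bars for the mean and SD of 3 arrays, and MutatedAO in red left of WTAO in blue. The panels share an axis length, so NLP5 in WTAO shoots can be seen to go to −0.47 on average after starvation against −1.35 at 0d, while NLP7 stays between 0.55 and 1.01 on all arrays.

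Nitrate resupply was followed by the opposite changes in WTAO shoots, whereas no NLP gene was called in MutatedAO shoots. In MutatedAO shoots 0 of 9 genes passed the limma test after 24 h with KNO3, where 14.6% of all genes tested were called higher, 12.9% lower and 27.4% either way, and 1 gene, NLP5, had an unadjusted p under 0.05. In WTAO shoots 5 genes were lower and 2 higher than at Nstarvation3d, where 25% of all genes tested were called lower, 23.3% higher and 48.3% either way. Both of the study's limits were met by 1.44% of all genes tested in MutatedAO and 4.22% in WTAO shoots. The median log2 change of the 9 genes was −0.04 in MutatedAO and −0.32 in WTAO shoots, against 0.01 and −0.02 over all genes tested. The starvation and resupply comparisons share the starved arrays, so a high value there enters both with opposite signs.

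NLP8 fell furthest. Its signals in WTAO shoots were −2.14, −2.12 and −2.09 after resupply against −1.52, −1.48 and −1.26 at Nstarvation3d, a 1.62-fold drop (−0.69 [−0.85 to −0.54], adjusted p = 8.78e-06, limma). In MutatedAO shoots they were −1.71, −1.68 and −1.62 after resupply against −1.79, −1.67 and −1.50 at Nstarvation3d (−0.02 [−0.18 to 0.14]), and the stages overlapped. Its second probe gave −0.19 (adjusted p = 0.285, limma) in MutatedAO and −0.91 in WTAO shoots (adjusted p = 6.78e-05, limma).

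NLP5 fell in WTAO shoots to −1.33, −0.99 and −0.90, against −0.53, −0.47 and −0.42 at Nstarvation3d (−0.60 [−0.79 to −0.41], adjusted p = 0.000103, limma). The lowest of these, replicate 1 of the resupplied WTAO shoots, was also the lowest of its group for NLP3, NLP6 and NLP9. Without it the NLP5 change was −0.48 and still called, as were all 7 WTAO resupply calls with any 1 array left out. In MutatedAO shoots NLP5 was at −1.36, −1.32 and −1.31 after resupply and below all 3 starved arrays, with a change of −0.23 [−0.42 to −0.04] that missed the threshold (adjusted p = 0.074, limma). The second NLP5 probe was called there (−0.32, adjusted p = 0.00834, limma).

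NLP2 behaved alike. It was at 0.55, 0.65 and 0.66 in resupplied WTAO shoots against 1.12, 1.17 and 1.17 at Nstarvation3d (−0.53 [−0.68 to −0.38], adjusted p = 3.88e-05, limma). In MutatedAO shoots its stages overlapped on the brightest probe (−0.08 [−0.23 to 0.06]), while the second probe gave −0.22 (adjusted p = 0.0279, limma). In WTAO shoots NLP9 fell by 0.38 [−0.55 to −0.21] and NLP4 fell by 0.32 [−0.47 to −0.17], against 0.10 [−0.07 to 0.27] and −0.04 [−0.19 to 0.11] in MutatedAO shoots.

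NLP7 and NLP1 went the other way in WTAO shoots. NLP7 rose to 0.93, 0.96 and 1.01 after resupply, against 0.55, 0.62 and 0.66 at Nstarvation3d (0.36 [0.24 to 0.48], adjusted p = 0.000116, limma). NLP1 rose by 0.20 [0.08 to 0.31] on its brightest probe, but its second probe gave 0.00 (adjusted p = 0.999, limma). In MutatedAO shoots NLP7 changed by 0.05 [−0.07 to 0.16] and NLP1 by 0.05 [−0.07 to 0.16], neither called. NLP3 and NLP6 were called in neither line after resupply, and the interval of NLP3 ran from −0.76 to 0.03 in MutatedAO and from −0.62 to 0.18 in WTAO shoots.

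The difference between the lines in the resupply response was called for 4 of 9 genes, 3 with a higher and 1 with a lower value in MutatedAO, where 3.27% of all genes tested were called higher, 2.89% lower and 6.15% either way. At an unadjusted p of 0.001 or less there were 3 genes, where 3.84% of all genes tested were. It was 0.67 [0.45 to 0.89] for NLP8 (adjusted p = 0.0036, limma), 0.48 [0.24 to 0.72] for NLP9 (adjusted p = 0.0234, limma), 0.45 [0.24 to 0.66] for NLP2 (adjusted p = 0.0179, limma) and −0.31 [−0.47 to −0.15] for NLP7 (adjusted p = 0.0296, limma). Positive values mean that the fall of WTAO shoots was absent or smaller in MutatedAO shoots, and the negative one that the rise of NLP7 was. NLP8 and NLP2 were called with any 1 array left out and with the slide as a block, but not with normexp background correction (0.45, adjusted p = 0.26 for NLP8 and 0.40, adjusted p = 0.133 for NLP2, limma). The second NLP2 probe gave 0.33 (adjusted p = 0.0531, limma). NLP9 was not called without MutatedAO Nstarvation3d replicate 1 or 3, MutatedAO resupply replicate 2 or WTAO resupply replicate 2 (adjusted p of 0.0521 to 0.061, limma), nor with the slide block (adjusted p = 0.056, limma). NLP7 was not called without MutatedAO Nstarvation3d replicate 1 or 3, WTAO Nstarvation3d replicate 2 or 3, MutatedAO resupply replicate 1 or 2 or WTAO resupply replicate 2 (adjusted p of 0.0558 to 0.076, limma), nor with the slide block (adjusted p = 0.0767, limma).

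**Figure D2:**
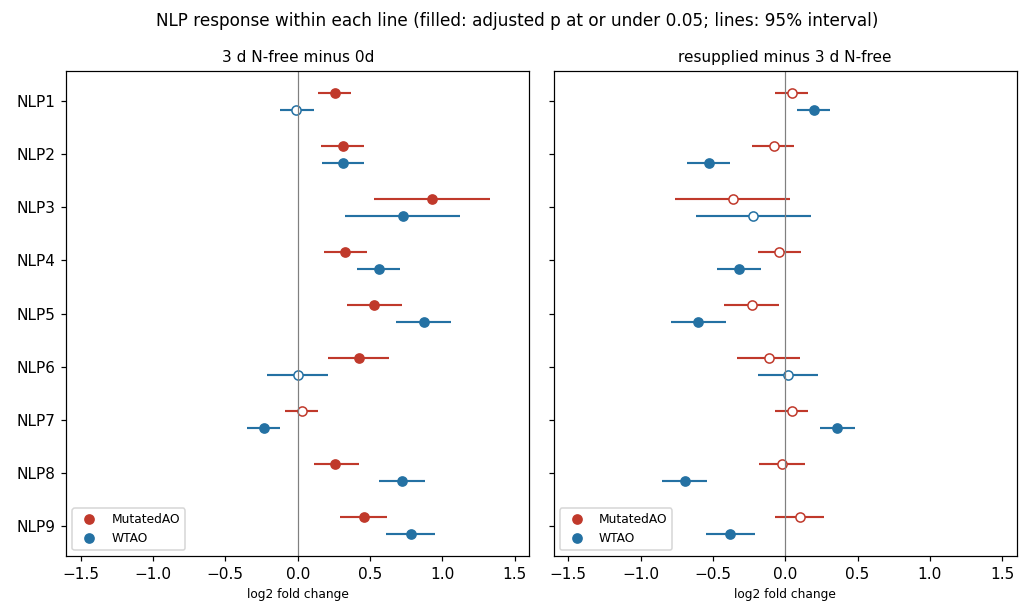
The left panel gives the log2 change of each NLP gene with starvation and the right panel that with resupply, with 95% intervals, MutatedAO in red above WTAO in blue, and filled points for adjusted p at or under 0.05. In the right panel all 9 MutatedAO points are open, while 7 WTAO points are filled, from −0.69 for NLP8 to 0.36 for NLP7.

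After resupply the transcripts had not returned to the unstarved level for every gene. Compared with 0d, 8 of 9 genes were higher in resupplied MutatedAO shoots and 0 lower, where 14.3% of all genes tested were called higher, 18.2% lower and 32.5% either way. In WTAO shoots 5 genes were higher and 1, NLP2, lower, where 17% of all genes tested were called higher, 25.3% lower and 42.4% either way. Both of the study's limits were met by 3.37% of all genes tested in MutatedAO and 3.38% in WTAO shoots. NLP9 changed by 0.56 [0.39 to 0.72] in MutatedAO and by 0.40 [0.23 to 0.56] in WTAO shoots, and NLP3 by 0.56 [0.17 to 0.96] in MutatedAO shoots. NLP2 differed from its 0d level by 0.23 in MutatedAO and by −0.22 in WTAO shoots. On its brightest probe NLP8 was close to its 0d level in WTAO shoots (0.03 [−0.13 to 0.19]) and above it in MutatedAO shoots (0.24 [0.08 to 0.40]). The second NLP8 probe gave −0.25 in WTAO (adjusted p = 0.129, limma) and −0.12 in MutatedAO shoots (adjusted p = 0.521, limma), so the rise in MutatedAO shoots rests on 1 probe. The second NLP1 probe gave 0.20 in MutatedAO shoots (adjusted p = 0.00438, limma) but 0.03 in WTAO shoots (adjusted p = 0.654, limma). On the brightest probes, the calls of NLP1, NLP4 and NLP9 in MutatedAO shoots and of NLP1 and NLP9 in WTAO shoots held with any 1 array left out. Each of the other calls was lost without at least 1 array, and each of the 6 arrays compared in either line decided at least 1 of them, with adjusted p up to 0.137 in MutatedAO and 0.162 in WTAO shoots (limma). The WTAO call of NLP3 was also lost without single arrays of groups outside the comparison, which share its estimate of spread. With the slide as a block 5 of the 8 calls in MutatedAO shoots were left (NLP1, NLP2, NLP4, NLP6 and NLP9) and 1 of the 6 in WTAO shoots (NLP9), and with normexp background correction 1 in each line.

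The lines were then compared at each stage. Before starvation 3 genes were higher and 3 lower in MutatedAO shoots, where 19.2% of all genes tested were called higher, 19.5% lower and 38.7% either way. At Nstarvation3d 3 were higher and 4 lower, where 26.3% of all genes tested were called higher, 25.7% lower and 52.1% either way. At resupply 3 were higher and 1 lower, where 25.6% of all genes tested were called higher, 21.8% lower and 47.4% either way. With a log2 difference of 1 or more as well, 5.77% of all genes tested were called at 0d, 7.17% at Nstarvation3d and 6.9% at resupply. The family thus did not differ in a common direction, and its share of calls at resupply was close to that of all genes. With normexp background correction 3 NLP genes were called between lines at 0d and 0 at resupply.

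NLP9 was higher in MutatedAO shoots at all 3 stages. At 0d it was at −2.74, −2.71 and −2.62 in MutatedAO against −3.33, −3.22 and −3.18 in WTAO shoots (0.55 [0.39 to 0.72], adjusted p = 7.08e-05, limma). At resupply it was at −2.27, −2.10 and −2.02 in MutatedAO against −2.88, −2.85 and −2.81 in WTAO shoots, 1.64-fold higher (0.72 [0.55 to 0.88], adjusted p = 4.16e-06, limma). The difference at Nstarvation3d was 0.23 [0.07 to 0.40], and it was not called without MutatedAO replicate 2 or WTAO replicate 1 or 3 of that stage (adjusted p of 0.0729 to 0.113, limma). Within slides that held both lines, the NLP9 difference was 0.71 and 0.45 at 0d, 0.24, 0.13 and 0.33 at Nstarvation3d and 0.62 and 0.79 at resupply.

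NLP1 was also higher in MutatedAO shoots on its brightest probe, by 0.27 [0.16 to 0.39] at 0d, 0.53 [0.42 to 0.65] at Nstarvation3d and 0.39 [0.27 to 0.50] at resupply. Its signals at Nstarvation3d were −2.01, −1.96 and −1.96 in MutatedAO against −2.62, −2.47 and −2.44 in WTAO shoots. The second NLP1 probe gave 0.00 at 0d (adjusted p = 0.947, limma), 0.19 at Nstarvation3d and 0.18 at resupply, so the 0d difference rests on 1 of its 2 probes.

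NLP2 was lower in MutatedAO shoots by the same amount before and after starvation. At 0d it was at 0.13, 0.26 and 0.27 in MutatedAO against 0.77, 0.78 and 0.97 in WTAO shoots (−0.62 [−0.77 to −0.47], adjusted p = 6.75e-06, limma). At Nstarvation3d it was at 0.44, 0.48 and 0.66 in MutatedAO against 1.12, 1.17 and 1.17 in WTAO shoots (−0.62 [−0.77 to −0.48], adjusted p = 4.37e-06, limma). At resupply the difference was −0.18 [−0.32 to −0.03] and just missed the threshold (adjusted p = 0.0507, limma), although the 3 arrays of each line still did not overlap, as held for 52.4% of all genes tested. The second NLP2 probe gave −0.58, −0.58 and −0.24 at the 3 stages, each called.

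NLP5 was lower in MutatedAO shoots at all 3 stages, with log2 differences of −0.29 [−0.48 to −0.10] at 0d, −0.63 [−0.82 to −0.44] at Nstarvation3d and −0.25 [−0.44 to −0.06] at resupply. The value at Nstarvation3d was called with any 1 array left out. That at 0d was lost without MutatedAO replicate 3 or WTAO replicate 1 or 3 of that stage (adjusted p of 0.0552 to 0.0757, limma). That at resupply was lost without any 1 of the 3 MutatedAO arrays or without WTAO replicate 2 or 3 (adjusted p of 0.0568 to 0.14, limma).

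NLP8 changed sides. It was higher in MutatedAO shoots at 0d (−1.98, −1.91 and −1.86 in MutatedAO against −2.17, −2.14 and −2.13 in WTAO shoots, a difference of 0.23 [0.07 to 0.39]). At Nstarvation3d it was lower, with a difference of −0.23 [−0.39 to −0.07], and the lines overlapped. At resupply it was again higher, by 0.44 [0.28 to 0.60] (adjusted p = 0.00021, limma). The resupply call held without any 1 array, while that at 0d was lost without MutatedAO replicate 1 or 2 or any WTAO array of that stage (adjusted p of 0.0523 to 0.0896, limma). The call at Nstarvation3d was lost without MutatedAO replicate 1 or 2 or WTAO replicate 2 of that stage (adjusted p of 0.0503 to 0.104, limma). It was also lost with only the arrays compared. With normexp background correction the call was lost at each stage. The second NLP8 probe was called at 0d (0.39) and at resupply (0.52) but not at Nstarvation3d (−0.20, adjusted p = 0.213, limma). The call for a lower level at Nstarvation3d thus rests on 1 probe.

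The other 4 genes were called at 1 stage or none. NLP4 was lower in MutatedAO shoots at Nstarvation3d (−0.27 [−0.42 to −0.12]) and NLP7 was higher there (0.19 [0.07 to 0.30]), and neither was called at the other stages. NLP6 was on the threshold at 0d (−0.26, adjusted p = 0.05, limma) and lost its call without any of 11 single arrays (adjusted p of 0.0535 to 0.174, limma). NLP3 was called at no stage (−0.40, −0.20 and −0.35), and its intervals, with a lower end of −0.80 at 0d, leave room for a sizeable difference.

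**Figure D3:**
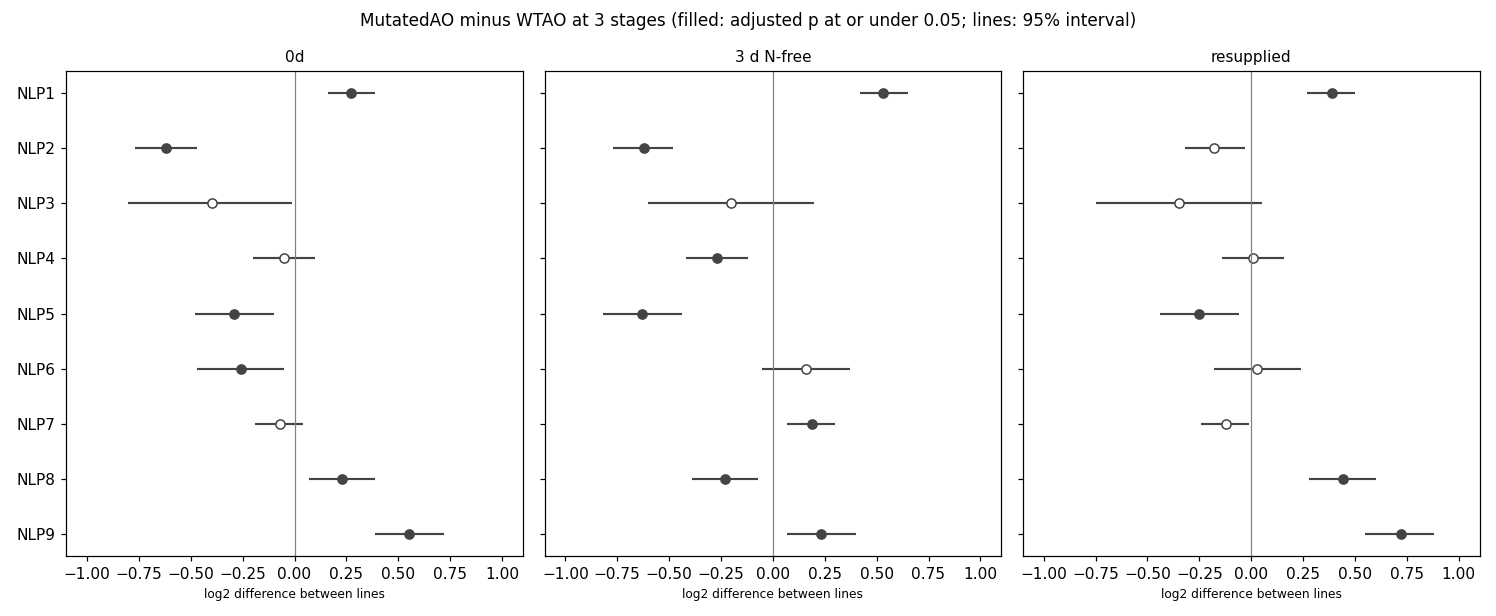
The 3 panels give the log2 difference of MutatedAO minus WTAO shoots for each NLP gene at 0d, after 3 days without N and after resupply, with 95% intervals and filled points for adjusted p at or under 0.05. NLP1 and NLP9 lie right of 0 and NLP5 left of 0 at all 3 stages, while NLP8 moves between 0.23, −0.23 and 0.44.

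Across the 6 group means NLP5 spanned the widest range of the family, 1.16 log2 units, followed by NLP3 with 1.13 and NLP9 with 1.11. NLP7 spanned the narrowest, 0.36, where the median over all genes tested was 0.58. NLP2, NLP3, NLP4, NLP5 and NLP8 had their highest mean in starved WTAO shoots, the group in which NLP7 had its lowest. The lowest mean of NLP1, −2.51, was that of WTAO shoots at 0d and Nstarvation3d alike. NLP1 and NLP9 were highest in resupplied MutatedAO shoots. Over the 18 arrays, which share the stages and lines, the pairs that ran most alike were NLP3 and NLP5 (Pearson r = 0.88), NLP4 and NLP5 (0.85), NLP2 and NLP5 (0.80) and NLP8 and NLP9 (0.79). The most opposed were NLP1 with NLP2 and NLP7 with NLP8, both at −0.66. The 2 probes of a gene had r = 0.98 for NLP2, 0.96 for the brighter NLP5 pair, 0.93 for NLP6, 0.81 for NLP1 and 0.78 for NLP8.

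Of all genes tested, those whose signal ran most like NLP5 over the 18 arrays were AT5G63410 (Pearson r = 0.971), SLP2 (0.969) and AT5G15710 (0.963). SLP2 averaged 2.47 in starved MutatedAO shoots against 2.13 at 0d, and 3.02 in starved WTAO shoots against 2.29 at 0d. For NLP3 they were MEKK1, a MAP kinase kinase kinase (0.914), EDA6 (0.908) and NRT1.1 (0.898). NRT1.1 is the dual-affinity nitrate transporter that also senses nitrate upstream of the NLPs, and it is described with the regulators next.

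Kinases and partners of NLPs and components of nitrate sensing at NRT1.1 were all measured, 12 of 12. At Nstarvation3d 5 were higher and 0 lower than at 0d in MutatedAO shoots, where 17.8% of all genes tested were called higher and 23.6% lower. In WTAO shoots 8 were higher and 1 lower, where 28% were called higher and 31.9% lower. NRT1.1 rose by 0.95 in MutatedAO and by 0.83 in WTAO shoots. The Ca2+-dependent kinases CPK10 and CPK32 rose by 0.40 and 0.39 in MutatedAO and by 0.57 and 0.51 in WTAO shoots, and KIN10, the catalytic subunit of the energy sensor SnRK1, rose by 0.48 in WTAO shoots (0.18 in MutatedAO, not called).

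After resupply 4 of these 12 genes were lower and 1 higher than at Nstarvation3d in MutatedAO shoots, where 12.9% of all genes tested were called lower and 14.6% higher. In WTAO shoots 7 were lower and 1 higher, where 25% were called lower and 23.3% higher. In both lines the 1 that rose was NRG2, which binds NLP7, by 0.43 in MutatedAO and by 0.82 in WTAO shoots. TCP20, another partner of NLP6 and NLP7, fell by 0.35 in MutatedAO and by 0.41 in WTAO shoots. NRT1.1 fell by 0.40 in MutatedAO and by 0.64 in WTAO shoots. The median of the list was −0.09 in MutatedAO and −0.17 in WTAO shoots. Between lines, 8 of 12 were lower and 3 higher in MutatedAO shoots at Nstarvation3d, where 25.7% of all genes tested were called lower and 26.3% higher, and CPK10 had the lowest difference, −0.51. The starvation response differed between lines for 2 genes, CIPK23 (−0.30) and CBL9 (0.23), where 7.75% of all genes tested were called, and the resupply response for 1, CIPK23 (0.31), where 6.15% were.

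Transcripts of the RKD genes, the other branch of RWP-RK factors, were hardly seen in shoots except for RKD5. RKD1, RKD3 and RKD4 were well above background on 0 of 18 arrays, RKD2 on 3 and RKD5 on 18, and only RKD5 was tested. The signal of RKD5 was low, at −6.41 to −5.56. RKD5 changed by −0.55 in WTAO shoots after resupply (adjusted p = 0.0116, limma), where 48.3% of all genes tested were called either way, and was called nowhere else.

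Genes that NLPs activate upon nitrate were mostly lower after starvation, and in WTAO shoots mostly higher after resupply. Of 21 such genes, AO itself included, 19 were tested, NRT2.2 and HHO1 being well above background on 0 arrays. At Nstarvation3d 10 were lower and 1 higher than at 0d in MutatedAO shoots, where 23.6% of all genes tested were called lower and 17.8% higher. In WTAO shoots 15 were lower and 1 higher, where 31.9% were called lower and 28% higher. The median log2 change of the target genes was −0.40 in MutatedAO and −1.34 in WTAO shoots. After resupply 7 were higher and 2 lower than at Nstarvation3d in MutatedAO shoots, where 14.6% of all genes tested were called higher and 12.9% lower. In WTAO shoots 13 were higher and 1 lower, where 23.3% were called higher and 25% lower. The medians were 0.17 in MutatedAO and 0.72 in WTAO shoots. AO was not among the genes that rose. It changed by 0.04 in MutatedAO and by −0.22 in WTAO shoots (adjusted p = 0.344, limma), and in resupplied WTAO shoots it stayed below its 0d level (−0.68, adjusted p = 0.0101, limma).

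In WTAO shoots the falls with starvation were largest in BT2, which codes for a BTB/TAZ scaffold protein, with −2.61 in MutatedAO and −4.55 in WTAO shoots, and in LBD39, a repressor of N-responsive genes, with −0.98 in MutatedAO and −2.64 in WTAO shoots. In MutatedAO shoots BT1, a relative of BT2, came second with −1.29, next to −1.36 in WTAO shoots. NIR1, which codes for nitrite reductase, changed by −0.40 in MutatedAO and −1.70 in WTAO shoots. UPM1, needed for the siroheme cofactor of nitrite reductase, changed by −0.48 in MutatedAO and −1.63 in WTAO shoots. After resupply BT2 changed by 0.48 in MutatedAO shoots (adjusted p = 0.162, limma) and rose by 2.97 in WTAO shoots, and LBD39 rose by 0.40 in MutatedAO and by 1.93 in WTAO shoots. The starvation response of 10 target genes differed between the lines, where 7.75% of all genes tested did, and the resupply response of 10, where 6.15% did, and all of these had the smaller change in MutatedAO shoots. At Nstarvation3d 11 target genes were higher and 2 lower in MutatedAO shoots, where 26.3% of all genes tested were called higher and 25.7% lower, with AO and RFNR1 the lower ones.

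**Figure D4:**
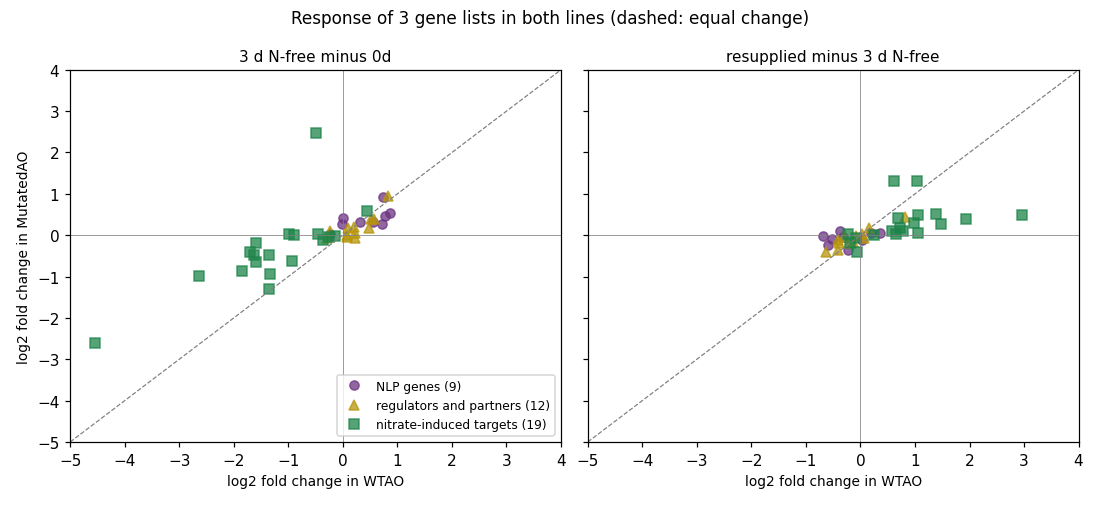
Each point is a gene, with its log2 change in MutatedAO shoots on the vertical axis and in WTAO shoots on the horizontal axis, for starvation on the left and resupply on the right, and the dashed line marks equal change. NLP genes (circles) stay between −0.69 and 0.93 on both axes, while the target genes (squares) reach −4.55 with starvation and 2.97 with resupply in WTAO shoots.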

How the data were processed

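RNA of whole shoots was labelled with Cy3 and hybridized to Agilent Arabidopsis V4 arrays, 3 for each of 6 groups. The authors deposited scanner files with background-corrected probe intensity on a linear scale, and a table of normalized signal that follows the same intensity scaled within each array. The file headers give Feature Extraction 12.1.1.1 and the scanner G2505B, where the study's methods name another version and scanner model. The authors' normalization before their own test is not given in the sources used here.

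The log2 processed signal was taken without flagged spots (3 to 91 per array), the 75th percentile of each array was subtracted, and repeated spots were averaged. Of 45220 spots 1417 are controls. Probes were assigned to loci through the accession in the array design and RefSeq (TAIR10.1), which gave 26716 genes. Probes with a gene that were well above background on all arrays of at least 1 group were tested. Model fitting used limma 3.58.1 in R 4.3.3 with 6 group means and empirical Bayes variance, with Benjamini-Hochberg adjustment over all probes tested, and was tested on simulated data. Besides an adjusted p of 0.05, the study's own limits were counted, a log2 fold change of 1 and, for interactions, an unadjusted p of 0.001. The number of arrays limits the precision.

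All 9 NLP genes are named, by the tested probe with the highest mean. For the 2 genes with the widest range of group means the 3 most correlated genes are named. Of each list at most 6 members are named for a comparison, not in every case those with the largest changes. The members and lists were chosen with earlier results of these data known. Slides, 5 in all, were read from the headers. Replicate numbers were checked as pairs by the correlation of residuals and do not pair the arrays. Alternatives covered normalization, background, the filter, flagged spots, probe choice, weights, variance prior, blocks and each array left out. Coordinates and NLP sequences are not used here.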

Additional observations from a re-analysis of the deposited data

Results flagged for a closer look

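In 5 cases the response of an NLP gene differed between the lines by the interaction test. With starvation this was NLP8, with a difference of −0.46 (MutatedAO minus WTAO response). With resupply it was NLP2, with 0.45, NLP7, with −0.31, NLP8, with 0.67, and NLP9, with 0.48. The 2 comparisons share the starved arrays. The summed flower markers were at 0.621 to 0.834 in MutatedAO and 0.267 to 0.442 in WTAO shoots at Nstarvation3d, in units of the 75th percentile, and at 0.869 to 1.15 in MutatedAO and 0.247 to 0.461 in WTAO shoots at resupply. Their part in these differences was not tested. Groups of 3 arrays are too small for a search for single outlying arrays.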

How the results depend on the processing

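Of 58 calls of an NLP gene in a comparison, 57 kept their direction and side of the threshold with quantile normalization. With the authors' table of normalized signal 58 did, but it follows the same intensity scaled within each array and is no separate check. The number of calls moved by over 1.5 times in these cases. With normexp background correction there were 3 calls between lines at 0d, 0 between lines at resupply, 3 for starvation in MutatedAO, 4 for resupply in WTAO, 1 for resupplied against unstarved shoots in either line, 0 for both interactions and 0 interactions at an unadjusted p of 0.001, and 23 of 58 calls were kept. With this setting the median of all genes reached −0.11 for resupplied against unstarved MutatedAO shoots, against −0.03 in the main fit. It reversed NLP3 there (−0.19), as the second probe did NLP8 (−0.12). The cause was not tested. With the slide as a block there were 5 calls for resupplied against unstarved MutatedAO, 1 for WTAO, 0 for the starvation interaction, 2 for the resupply interaction and 2 interactions at the unadjusted p. With only the arrays compared these were 1 for resupplied against unstarved WTAO, 3 for the starvation and 2 for the resupply interaction, 2 at the unadjusted p, and 1 for resupply in MutatedAO. The last was 1 with array weights and with normexp and quantile normalization together, and 2 with the second brightest probe. The starvation interaction had 2 calls with quantile normalization, the authors' table, only probes above background on all arrays or a trended prior, 6 with array weights and 0 with the second probe, which left 1 at the unadjusted p.

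When the test asked for a log2 change beyond 0.5, 2 calls were left for starvation in WTAO and 0 in the other comparisons. The fit with the replicate block kept 57 of 58 calls and lost NLP3 for resupplied against unstarved WTAO (0.51, adjusted p = 0.0507, limma). The numbers pair no arrays, with mean residual correlations of 0.0122 to 0.052. Leaving out single arrays gave 3 to 7 calls between lines at 0d, 5 to 7 at Nstarvation3d and 3 to 5 at resupply. For starvation it gave 7 to 8 in MutatedAO and 7 in WTAO, for resupply 0 to 1 and 7, and for resupplied against unstarved shoots 3 to 8 and 3 to 6. The interactions had 0 to 5 (starvation) and 2 to 5 (resupply) calls, 1 to 5 at the unadjusted p against 4 with all arrays, and 0 to 1 values passed the study's fold limit, NLP3 with starvation in MutatedAO shoots.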
